A study of Homo sapiens with 9 samples.

Results

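The genes described here make cholesterol and fatty acids. They are 30 genes chosen by name from the 20812 genes of the deposited table, by their function and not by a threshold on measured values, though with earlier results of these data known, and all 30 were found in it. By role they are 7 genes of the mevalonate and isoprenoid steps, 9 that carry squalene to cholesterol, 5 that regulate SREBP or carry sterol, and 9 of fatty acid synthesis and desaturation. A gene was tested when its mean over the 9 libraries was at least 1 RPM (gene reads scaled to a fixed library total), which 27 of the 30 passed.

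The cells were SKBR3, an established human breast cancer line with an amplified ERBB2 gene. All libraries came from cells transfected in lipid with siRNA at 10 nM and treated for 48 h, and each of the 3 groups had 3 libraries. The control group received a non-targeting siRNA from Horizon Discovery, and the other groups received PVRL4 siRNA 1 or PVRL4 siRNA 2, both made by Integrated DNA Technologies. Target and supplier therefore change together against control, and their effects cannot be told apart. PVRL4 encodes nectin-4, an adhesion molecule of epithelial cells, and the comparisons ask which transcripts change when it is lowered.

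Cholesterol is built from acetyl-CoA through mevalonate, isoprenoid units and squalene, and fatty acids are built from the same precursor by carboxylation, chain assembly, elongation and desaturation. Transcription of both routes is driven by the SREBP proteins, encoded by SREBF1 and SREBF2, which the escort protein SCAP carries out of the endoplasmic reticulum when sterols are scarce and which INSIG proteins hold back when sterols are plentiful. Breast cancer cells with high HER2 are known for high fatty acid synthase.

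The 4 promoter windows below show the letters that SREBP and its partner factors are known to read at genes of these routes. They are the 250 bases before the annotated gene start, from RefSeq on GRCh38.p14, printed from 5′ to 3′ on the gene's own strand. SREBF2 is shown because it was the member that held the stricter sterol element string, HSD17B7 and FDPS because they held the looser one, and INSIG1 because it held an E box. Capitals mark matches to the strings searched.
SREBF2, chr22:41832855-41833104, + strand: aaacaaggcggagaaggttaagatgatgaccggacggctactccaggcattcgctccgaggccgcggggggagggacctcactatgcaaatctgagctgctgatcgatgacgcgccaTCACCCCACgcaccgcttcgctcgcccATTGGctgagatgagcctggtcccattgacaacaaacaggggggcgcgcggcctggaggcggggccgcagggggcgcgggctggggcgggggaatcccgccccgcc
HSD17B7, chr1:162790452-162790701, + strand: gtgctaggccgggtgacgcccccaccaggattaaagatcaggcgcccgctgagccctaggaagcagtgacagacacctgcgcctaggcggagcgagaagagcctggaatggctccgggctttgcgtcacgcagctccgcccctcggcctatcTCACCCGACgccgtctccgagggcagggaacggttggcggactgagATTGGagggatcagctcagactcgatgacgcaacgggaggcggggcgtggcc
FDPS, chr1:155308616-155308865, + strand: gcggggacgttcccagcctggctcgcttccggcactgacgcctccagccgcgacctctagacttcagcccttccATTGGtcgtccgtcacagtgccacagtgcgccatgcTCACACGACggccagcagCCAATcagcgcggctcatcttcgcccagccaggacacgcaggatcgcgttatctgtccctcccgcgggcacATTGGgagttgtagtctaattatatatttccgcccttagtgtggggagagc
INSIG1, chr7:155297628-155297877, + strand: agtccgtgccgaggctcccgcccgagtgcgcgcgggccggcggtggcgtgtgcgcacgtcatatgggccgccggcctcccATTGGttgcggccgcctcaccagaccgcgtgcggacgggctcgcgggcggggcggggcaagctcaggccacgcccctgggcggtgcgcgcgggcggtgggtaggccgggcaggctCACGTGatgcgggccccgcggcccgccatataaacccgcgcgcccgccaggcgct

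The strings were searched on both strands of these windows, and 26 of the 30 members matched a RefSeq entry, with 35 windows in all because some genes have several starts. The looser sterol element, TCACNCNAC, lay in 5 of the 35 member windows, against 2.02% of all 35116 windows of the same length. Its genes were ACSS2, FADS2, FDPS, HSD17B7 and SREBF2. This string was kept after the stricter one had matched only SREBF2 among the members, so its share here is not a test. The stricter form, TCACNCCAC, which the looser string contains, lay in 1 of the 35, at SREBF2 at position -133 from the gene start, against 0.883% of all windows. CCAAT, the site known for the partner factor NF-Y and read as ATTGG on the other strand, lay in 21 of the 35, against 32.0%. The E box CACGTG lay in 2 of the 35, at INSIG1 and SCAP, against 6.34%. Windows of 1 gene can overlap, as at ACLY, and then count the same site more than once. A match is a description of the letters, not of binding. ACAT2, FASN, FDFT1 and SQLE had no entry in the promoter table.

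The targeted gene checked the labels, and its 6 siRNA libraries were all below its 3 control libraries. PVRL4 was at 9.93, 7.86 and 11.6 RPM in the control libraries, 5.99, 4.36 and 4.67 RPM with siRNA 1, and 3.39, 2.91 and 2.58 RPM with siRNA 2. Its log2 change was -0.84 with siRNA 1 (limma adjusted p = 0.0601, 0.0132 with the replicate number in the fit) and -1.44 with siRNA 2 (limma adjusted p = 0.00224), and by exact permutation of the libraries (two-sided) each had p = 0.1, the lowest value this design can reach. Depth was 10017130 to 10707777 reads a library. Of the 9 epithelial and breast markers, KRT8, KRT18, KRT19, EPCAM and ERBB2 were abundant. TFAP2A and GATA3 averaged 158 and 30.2 RPM over the 9 libraries, TFAP2B had 6 to 14 reads and CDH1 had 0 to 1 reads. The 7 leukocyte markers listed summed to 4.44 to 11.8 RPM, mostly CSF1R (42 to 111 reads), with PTPRC at 0 reads in all 9 libraries. The 8 fibroblast and endothelial markers summed to 9.44 to 15.5 RPM, mostly CDH5 and COL1A1, and the 7 liver and adipocyte markers to 0.667 to 4.45 RPM. The 15 interferon-induced genes listed summed to 162 to 168 RPM in control libraries, 942 to 6479 RPM with siRNA 1 and 173 to 258 RPM with siRNA 2. All 15 were higher with siRNA 1 than in control, 14 of them with a limma adjusted p under 0.05 (0.851% of all genes tested). These are bulk samples, in which fewer cells of a type and less RNA per cell cannot be told apart.

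None of the 27 tested members passed the threshold, an adjusted p under 0.05, for any comparison between siRNA groups in the limma fit of log2(RPM + 1). The background was 0.851% of the 11158 genes tested for siRNA 1 against control, 0.681% for siRNA 2 against control and 3.05% for siRNA 2 against siRNA 1. On the recovered reads edgeR gave 0 in each. DESeq2 gave 0 with siRNA 1, 1 with siRNA 2 (FASN) and 2 between the siRNAs (ACLY and FASN). Over all 11158 genes, edgeR called 108, 58 and 344 and DESeq2 161, 159 and 524 in these comparisons. At an unadjusted p under 0.05, 1 member was lower with siRNA 1 (background 2.78%) and 5 were lower with siRNA 2 (background 6.93%), with 0 higher in either. Between the siRNAs, 4 were lower with siRNA 2 (background 10.1%) and 1 was higher (background 5.05%).

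Libraries that share a replicate number also deviated together, so each comparison was fitted again with that number as a block. In that fit ACLY fell with siRNA 1 (1 of 27, background 1.85%), and FASN and INSIG1 fell with siRNA 2 (2 of 27, background 3.41%). Between the siRNAs, CYP51A1, SREBF2, FASN and SCD were lower and ACLY was higher with siRNA 2 than with siRNA 1 (5 of 27, background 9.33%). Each of these calls was lost in at least 1 of the fits that left out a single library, as given with each gene. The sign of each change held in all of those fits.

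**Figure D1:**
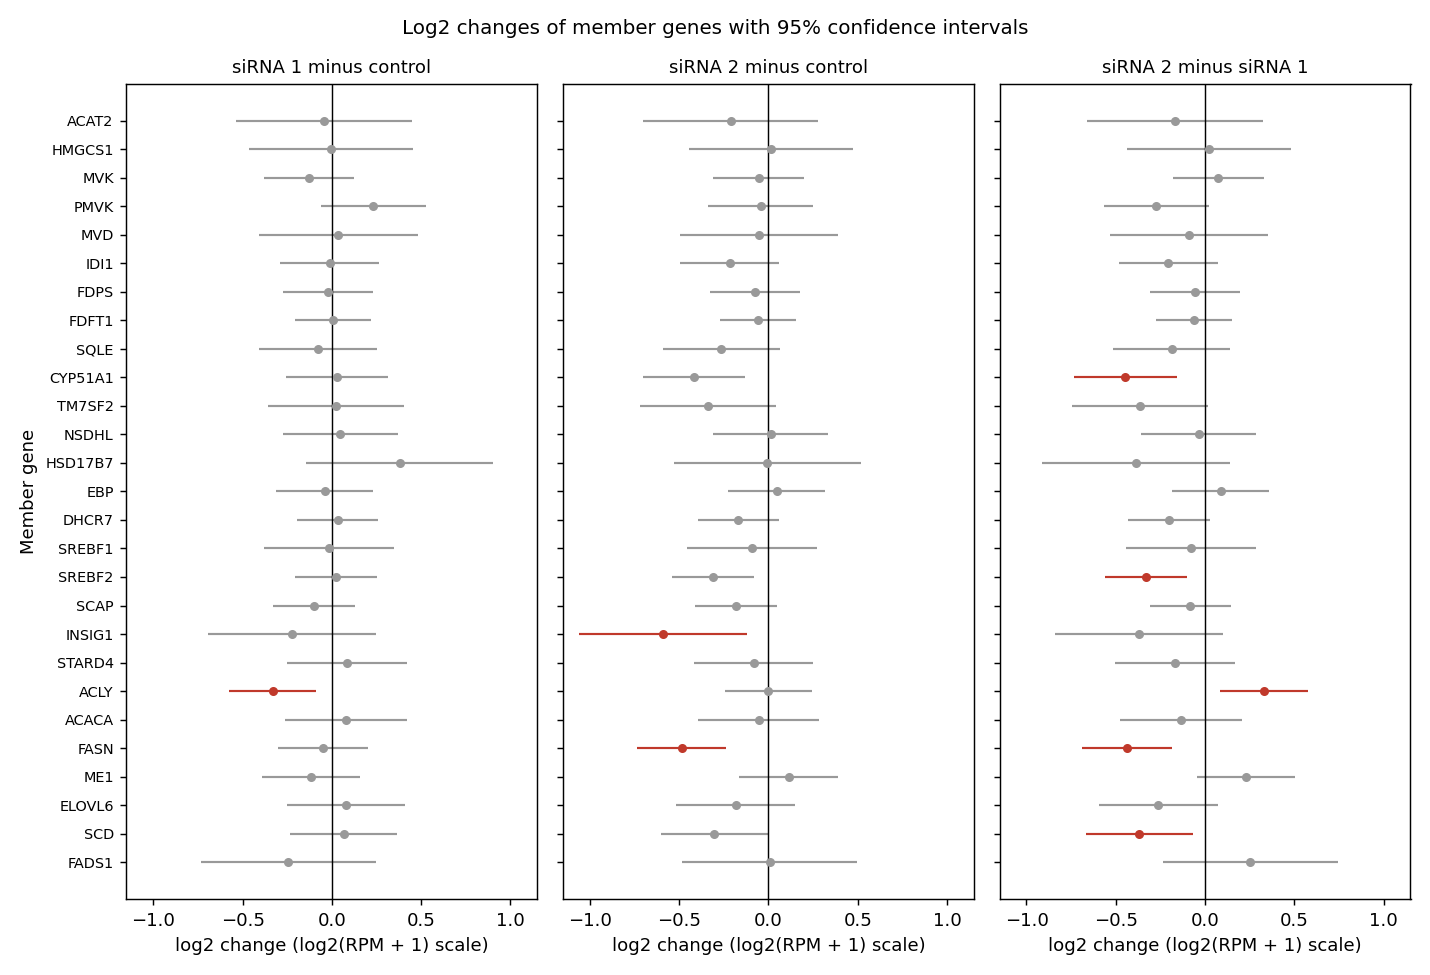
Log2 change of the 27 tested members (log2(RPM + 1) scale) in each comparison. Points are limma estimates from the fit without the block, lines are 95% confidence intervals, and red marks members with an adjusted p under 0.05 once the replicate number is in the fit: ACLY in the first panel, INSIG1 and FASN in the second, and CYP51A1, SREBF2, ACLY, FASN and SCD in the last.

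Most members had a change below 0 with siRNA 2. With siRNA 1 the sign was negative in 14 of 27 members, against 46.1% of all genes tested, and the median log2 change was -0.01 against 0.01 over all genes. With siRNA 2 it was negative in 22 of 27, against 54.6% of all genes, with a median of -0.08 against -0.02. Between the siRNAs it was negative in 21 of 27, against 57.1%, with a median of -0.17 against -0.04. The last 2 counts were both 20 with TMM or median-of-ratios scaling and both 19 with quantile scaling. Under those scalings the siRNA 2 median over all genes was 0.004 to 0.011. With 1 library left out the counts ran from 18 to 24 with siRNA 2 and from 18 to 22 between the siRNAs. These 3 comparisons share libraries and the members are not independent, so the counts are descriptions.

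Members whose libraries did not overlap between groups were few. Against control, ACLY and FADS1 were lower in every siRNA 1 library (2 of 27, background 5.59%) and PMVK was higher in every one (1 of 27, background 6.4%). TM7SF2, SREBF2 and FASN were lower in every siRNA 2 library than in every control library (3 of 27, background 8.95%), and 0 of 27 were higher (background 4.99%). PMVK, CYP51A1, TM7SF2, SREBF2 and FASN were lower in every siRNA 2 library than in every siRNA 1 library (5 of 27, background 12.6%), and ACLY was higher (1 of 27, background 7.04%). These shares lay within a few genes of their backgrounds.

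The sterol route opens with ACAT2 (thiolase), which joins acetyl units, HMGCS1, which makes the precursor of mevalonate, and the kinases MVK and PMVK and the decarboxylase MVD, which process mevalonate. IDI1 interconverts the isoprenoid units and FDPS joins them. None of these 7 genes passed the threshold between siRNA groups with or without the block. Changes ranged from -0.13 for MVK to 0.23 for PMVK with siRNA 1, and from -0.22 for IDI1 to 0.01 for HMGCS1 with siRNA 2. Between the siRNAs they ranged from -0.27 for PMVK to 0.07 for MVK.

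PMVK was at 15.6, 14.2 and 16.1 RPM in control libraries, 16.1, 18.8 and 19.5 RPM with siRNA 1, and 14.1, 14.2 and 16.1 RPM with siRNA 2. The siRNA 1 libraries lay above the rest by a narrow margin in replicate 1, and the adjusted p against control was 0.984 in limma. MVK was at 84.8, 75.8 and 76.6 RPM in control libraries, 81.9, 62.6 and 73.1 RPM with siRNA 1, and 83.0, 69.8 and 75.8 RPM with siRNA 2. Its groups overlapped fully, and replicate 1 was its highest library in each group. MVD, the lowest of the 7 in read number, was at 9.52 ± 3.09 RPM, 9.49 ± 1.18 RPM and 8.82 ± 0.463 RPM (SD, n = 3) in the 3 groups in that order.

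From squalene on, FDFT1 makes squalene and SQLE oxidises it, LSS closes the ring to lanosterol, and CYP51A1, TM7SF2, NSDHL, HSD17B7, EBP and DHCR7 trim and rearrange it towards cholesterol. CYP51A1, the lanosterol demethylase, was the member of this route that differed between the siRNAs in the fit with the block. It was at 806, 606 and 778 RPM in control libraries, 637, 788 and 805 RPM with siRNA 1, and 482, 626 and 529 RPM with siRNA 2. Every siRNA 2 library lay below every siRNA 1 library, while control replicate 2 lay inside the siRNA 2 range. Its log2 difference between the siRNAs was -0.45 (95% confidence interval -0.73 to -0.16; limma adjusted p = 0.101, 0.0251 with the block, and 0.0541 with the block in edgeR). The call with the block was lost without siRNA 1 replicate 2 (adjusted p = 0.106), siRNA 1 replicate 3 (0.143), siRNA 2 replicate 1 (0.120) or siRNA 2 replicate 3 (0.104). Against control its change with siRNA 2 was -0.42 (limma adjusted p = 0.264, 0.0670 with the block).

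HSD17B7, a sterol ketone reductase, had the highest estimate of the members with siRNA 1, at 0.38, without passing the test (limma adjusted p = 1.00). It was at 8.49, 6.73 and 4.93 RPM in control libraries, 12.9, 6.39 and 8.31 RPM with siRNA 1, and 7.89, 5.14 and 6.87 RPM with siRNA 2. The siRNA 1 level rested on replicate 1, without which the estimate was 0.13 and which was also the highest replicate in the other groups, and 50 to 134 reads a library lay behind these values. SQLE had the lowest change of this route with siRNA 1, at -0.08. CYP51A1 had the lowest with siRNA 2 and EBP, a sterol isomerase, the highest, at 0.05. DHCR7, which makes cholesterol in the last step, was at 198 ± 9.67 RPM in control, 202 ± 9.65 RPM with siRNA 1 and 177 ± 24.5 RPM with siRNA 2 (SD, n = 3).

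TM7SF2, a sterol reductase, was at 17.6 ± 5.06 RPM in control, 17.5 ± 1.77 RPM with siRNA 1 and 13.4 ± 1.17 RPM with siRNA 2 (SD, n = 3). The siRNA 2 libraries lay just below all the others, and the limma adjusted p against control was 0.606. LSS had 0 to 1 reads in every library, below a floor of 3 reads, so its level was not detectable at this depth at its 1 amplicon.

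Among the regulators, SREBF1 and SREBF2 encode the SREBP factors, SCAP their escort, INSIG1 the retention protein and STARD4 a cytosolic sterol carrier. All 5 had a negative estimate with siRNA 2, from -0.59 for INSIG1 to -0.08 for STARD4. INSIG1 was at 40.8, 35.8 and 28.3 RPM in control libraries, 41.0, 24.1 and 25.8 RPM with siRNA 1, and 30.6, 21.2 and 17.6 RPM with siRNA 2. The groups overlapped, but within each replicate number the siRNA 2 library was below its control library. Its log2 change with siRNA 2 was -0.59 (95% confidence interval -1.06 to -0.12; limma adjusted p = 0.355, 0.00999 with the block and 0.0102 with the block in edgeR). The call with the block was lost without control replicate 2 (adjusted p = 0.107) or control replicate 3 (0.0596). With siRNA 1 the estimate was -0.22 (limma adjusted p = 1.00), and the difference between the siRNAs was -0.37 (limma adjusted p = 0.473, 0.0645 with the block). Leaving out 1 library moved these estimates between -0.46 and -0.084 for siRNA 1 and between -0.58 and -0.14 for the difference, the smallest difference being without siRNA 1 replicate 1.

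SREBF2, the factor known mainly for the sterol genes and the bearer of the stricter sterol element printed above, was at 102, 89.8 and 98.5 RPM in control libraries, 99.0, 97.5 and 97.3 RPM with siRNA 1, and 88.0, 69.7 and 76.5 RPM with siRNA 2. The siRNA 2 libraries lay below all 6 others, with replicate 1 close to control replicate 2. The log2 difference between the siRNAs was -0.33 (95% confidence interval -0.56 to -0.10; limma adjusted p = 0.132, 0.0248 with the block). That call was lost without siRNA 1 replicate 2 (adjusted p = 0.156) or replicate 3 (0.0996), or siRNA 2 replicate 2 (0.128) or replicate 3 (0.0626). Against control the change with siRNA 2 was -0.31 (limma adjusted p = 0.327, 0.0653 with the block).

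SREBF1, the factor known mainly for fatty acid genes, was at 328 ± 45.1 RPM in control, 323 ± 41.0 RPM with siRNA 1 and 313 ± 82.1 RPM with siRNA 2 (SD, n = 3). SCAP was at 112 ± 2.00 RPM, 105 ± 9.02 RPM and 99.1 ± 10.9 RPM in the same order. Neither passed the threshold in any comparison.

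In fatty acid synthesis, ACLY and ACSS2 supply acetyl-CoA and ME1 supplies reducing power, ACACA makes malonyl-CoA and FASN assembles the chain. ELOVL6 lengthens it, and SCD, FADS1 and FADS2 introduce double bonds. FASN and SCD had their lowest mean with siRNA 2, and ACLY with siRNA 1.

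FASN was at 1255, 1376 and 1087 RPM in control libraries, 1147, 1289 and 1141 RPM with siRNA 1, and 1026, 819 and 812 RPM with siRNA 2. All siRNA 2 libraries lay below all the others, at 71.4% of the control mean. The log2 change with siRNA 2 was -0.49 (95% confidence interval -0.74 to -0.24; limma adjusted p = 0.0891, 0.00776 with the block, 0.0127 with the block in edgeR and 0.0104 in DESeq2). The call with the block was lost without control replicate 2 (adjusted p = 0.0768) or siRNA 2 replicate 2 (0.0765). Against siRNA 1 the difference was -0.44 (limma adjusted p = 0.0625, 0.00724 with the block), and that call was lost without siRNA 1 replicate 3 (adjusted p = 0.0694) or siRNA 2 replicate 2 (0.0746). With siRNA 1 against control it was -0.05 (limma adjusted p = 1.00).

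ACLY was at 699, 704 and 619 RPM in control libraries, 564, 553 and 489 RPM with siRNA 1, and 773, 686 and 574 RPM with siRNA 2. Every siRNA 1 library lay below every other library, narrowly so beside siRNA 2 replicate 3. The log2 change with siRNA 1 was -0.33 (95% confidence interval -0.58 to -0.09; limma adjusted p = 0.415, 0.0324 with the block). That call held without siRNA 2 replicate 1 or replicate 3 and was lost without any 1 of the other 7 libraries (adjusted p from 0.0515 to 0.255). With siRNA 2 against control the change was -0.0010 (limma adjusted p = 0.998). The difference between the siRNAs was 0.33 (limma adjusted p = 0.159, 0.0120 with the block and 0.0183 in DESeq2), and its call with the block was lost without siRNA 1 replicate 1 (adjusted p = 0.0792), siRNA 1 replicate 2 (0.0538) or siRNA 2 replicate 1 (0.0773).

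SCD, the stearoyl-CoA desaturase, was at 1042, 915 and 926 RPM in control libraries, 1067, 942 and 1007 RPM with siRNA 1, and 962, 811 and 603 RPM with siRNA 2. The low siRNA 2 level rested mainly on replicate 3, and replicate 1 lay inside the control range. Its difference between the siRNAs was -0.37 (95% confidence interval -0.67 to -0.07; limma adjusted p = 0.203, 0.0305 with the block, 0.0543 with the block in edgeR). The call with the block was lost without siRNA 1 replicate 2 (adjusted p = 0.0506), siRNA 1 replicate 3 (0.241) or siRNA 2 replicate 3 (0.130, with a difference of -0.20).

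Of the others in this route, ME1 had the highest change with siRNA 2, at 0.11, and ACACA the highest with siRNA 1, at 0.08. ELOVL6 was at 50.1 ± 4.81 RPM in control, 53.1 ± 6.25 RPM with siRNA 1 and 44.7 ± 10.4 RPM with siRNA 2 (SD, n = 3). FADS1 rested on 8 to 20 reads a library. FADS2, at 0 to 7 reads, and ACSS2, at 1 to 4 reads, stayed under the filter, so no change in them was detectable at this depth.

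**Figure D2:**
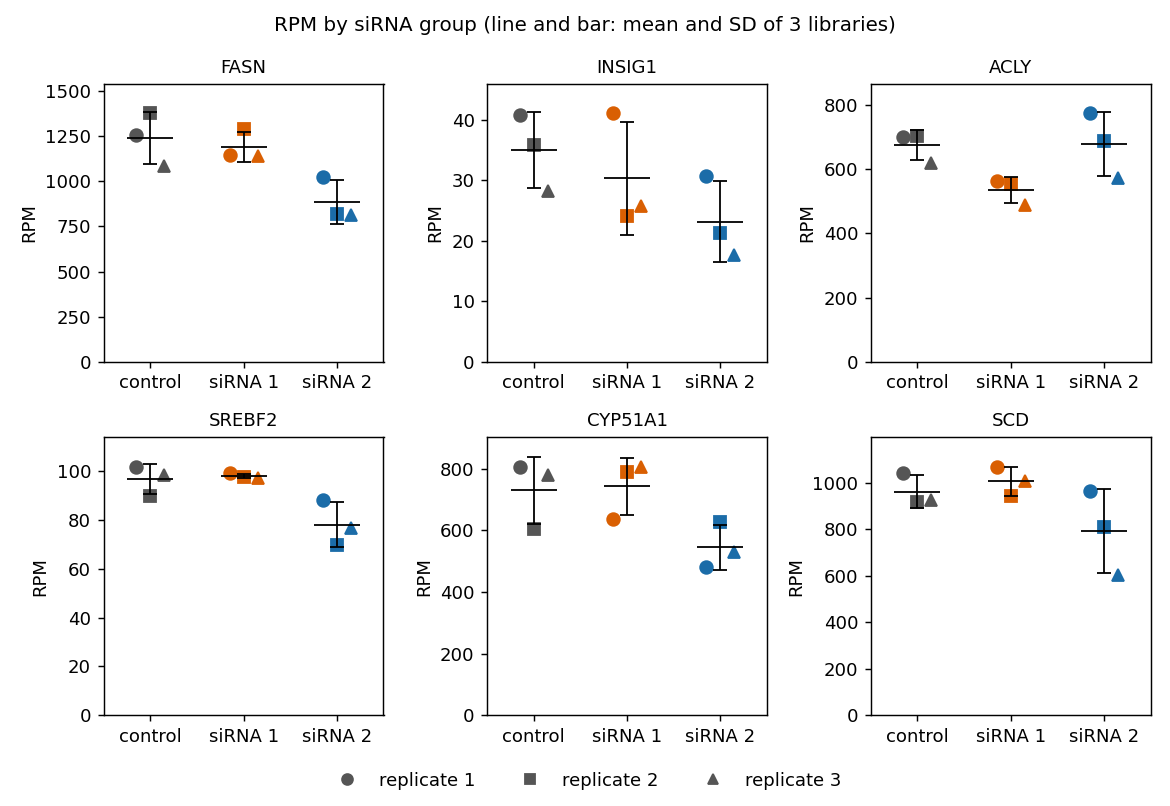
RPM of the 6 members that passed the threshold in a comparison between siRNA groups once the replicate number was in the fit. Each point is 1 library, with its shape giving the replicate number, and the line and bar are the mean and SD of 3 libraries. FASN and SREBF2 are lowest in the 3 siRNA 2 libraries and ACLY in the 3 siRNA 1 libraries, while INSIG1 overlaps between groups.

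More members passed a test of the replicate number than a test between siRNA groups. Between groups 0 passed in limma without the block and at most 5 with it. Only the latter fit shares its model with the replicate test, and in it 9.33% of all genes passed between the siRNAs. In an F test of the number, with the siRNA group in the fit, 8 of the 27 members passed the threshold, against a background of 9.77% of all genes: ACAT2, HMGCS1, IDI1, SQLE, SREBF1, INSIG1, ME1 and ELOVL6. edgeR called 8 and DESeq2 7, with 1090 and 842 of all 11158 genes called. In 12 of 27 members replicate 1 was the highest of its group in all 3 groups, against 11.2% of all genes, and these included 5 of the 7 mevalonate and isoprenoid genes. Replicate 2 was the highest in all 3 groups in 1 of 27, SREBF1 (background 9.24%), and replicate 3 in 2 of 27, PMVK and ME1 (background 6.21%). The labels do not say what a replicate number stands for.

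ACAT2 was at 43.0, 40.3 and 30.1 RPM in replicate 1 of control, siRNA 1 and siRNA 2, at 22.5, 24.0 and 21.8 RPM in replicate 2, and at 27.4, 24.9 and 25.6 RPM in replicate 3. The replicate 1 libraries lay above the other 6, with a log2 difference of 0.69 from replicate 2 (95% confidence interval 0.45 to 0.94) and of 0.51 from replicate 3 (adjusted p = 0.00429, limma F test). HMGCS1 was at 48.5, 60.5 and 60.6 RPM in replicate 1, at 40.9, 37.6 and 35.5 RPM in replicate 2, and at 39.8, 34.3 and 37.9 RPM in replicate 3. Its replicate 1 libraries were again the 3 highest, by 0.56 and 0.58 on the log2 scale (adjusted p = 0.00636, limma F test). INSIG1, whose values are given above, differed by 0.48 and 0.64 in the same direction (adjusted p = 0.00783, limma F test).

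IDI1 was at 164, 165 and 148 RPM in replicate 1, at 148, 145 and 123 RPM in replicate 2, and at 131, 130.5 and 111 RPM in replicate 3. SQLE was at 75.1, 74.1 and 61.0 RPM in replicate 1, at 58.6, 57.5 and 47.2 RPM in replicate 2, and at 57.8, 50.8 and 50.7 RPM in replicate 3. In both genes replicate 1 was highest within each group (limma F test, adjusted p = 0.0211 and 0.0198). ELOVL6 did the same, with 54.6, 60.2 and 55.6 RPM in replicate 1, 50.8, 50.5 and 43.4 RPM in replicate 2, and 45.0, 48.5 and 35.0 RPM in replicate 3 (adjusted p = 0.0383, limma F test).

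SREBF1 and ME1 had another order. SREBF1 was at 299, 310 and 340 RPM in replicate 1, at 380, 369 and 378 RPM in replicate 2, and at 304, 291 and 221 RPM in replicate 3, so replicate 2 was highest (adjusted p = 0.0207, limma F test). ME1 was at 163, 144 and 171 RPM in replicate 1, at 133, 138 and 160 RPM in replicate 2, and at 191, 163 and 192 RPM in replicate 3, so replicate 3 was highest (adjusted p = 0.0389, limma F test). The count of 8 was 4 of 30 with no filter on low values and 1 (ACAT2) without a trend in limma. It was between 3 and 7 when any 1 library was left out. Calls over all genes fell as well, from 1090 of 11158 to 354 of 16323 with no filter and 316 of 11158 without a trend. With 1 library left out they were 609 to 815.

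**Figure D3:**
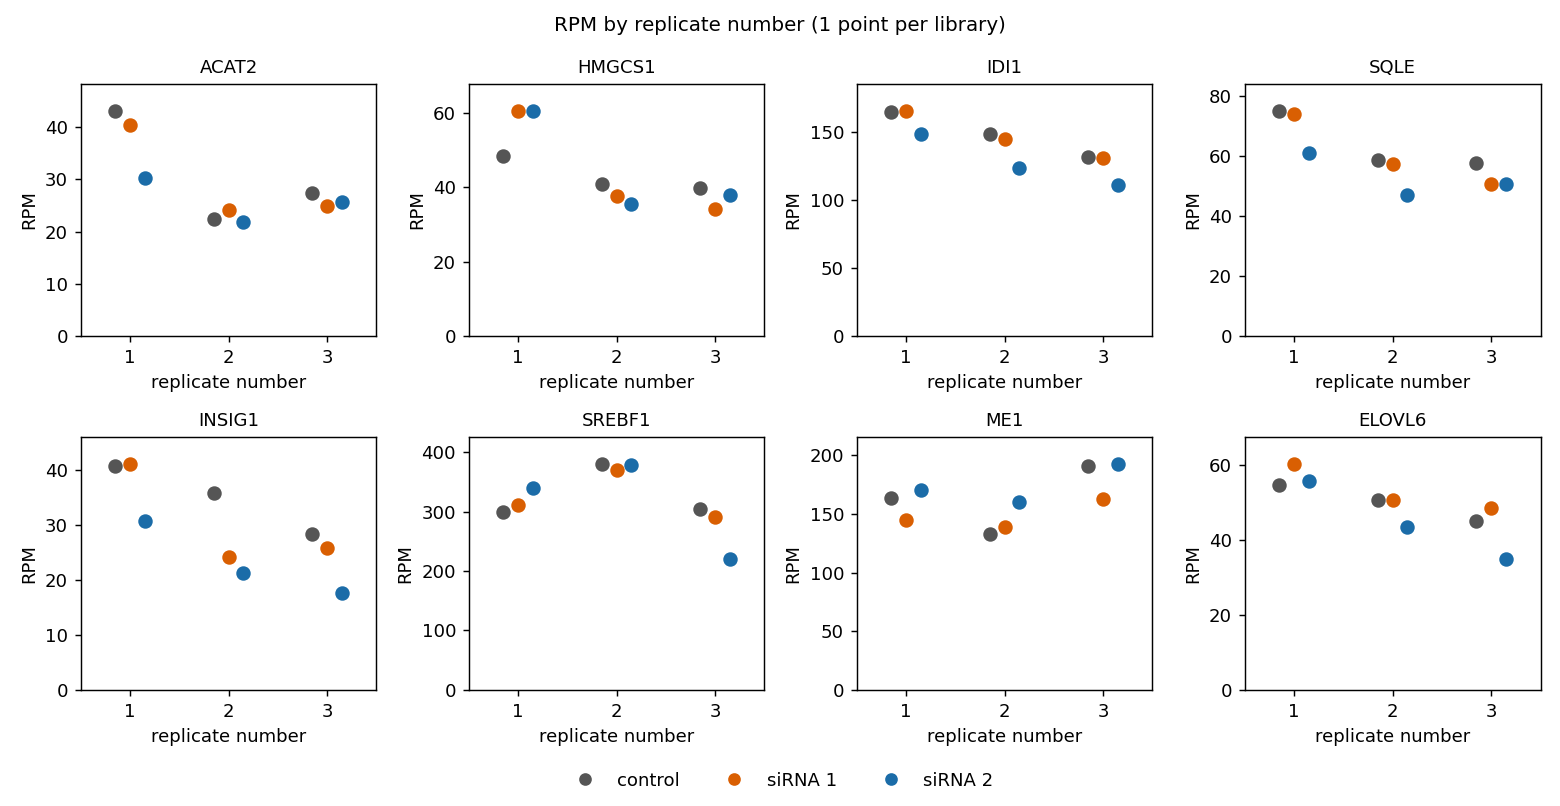
RPM of the 8 members that passed the F test of the replicate number, by replicate number, with 1 point per library coloured by siRNA group. ACAT2, HMGCS1, IDI1, SQLE, INSIG1 and ELOVL6 are highest in replicate 1 within each group, SREBF1 in replicate 2 and ME1 in replicate 3.

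**Figure D4:**
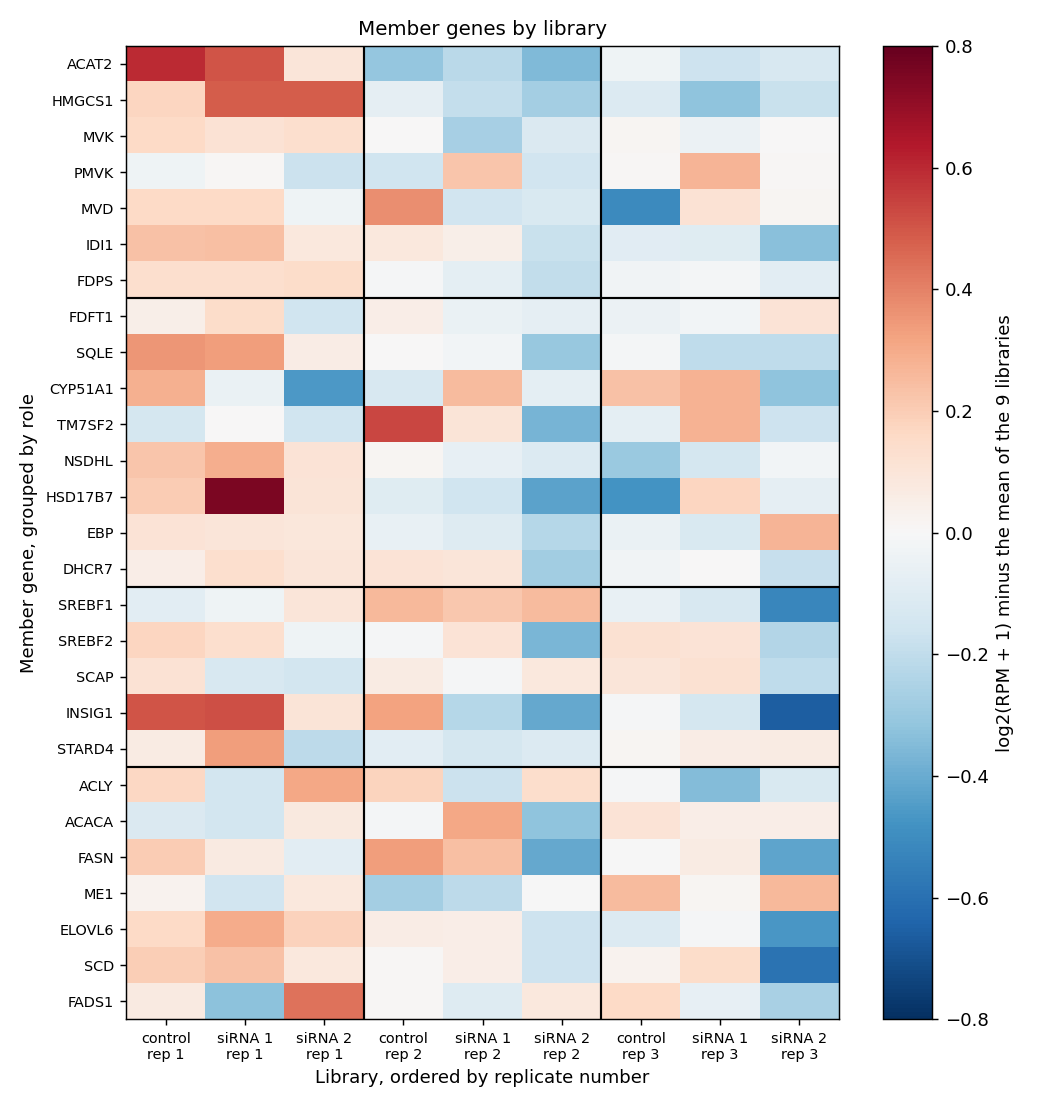
Deviation of each of the 27 tested members from its mean over the 9 libraries, on the log2(RPM + 1) scale, with libraries ordered by replicate number and members by role. The 3 libraries of replicate 1 are mostly red in the mevalonate rows at the top, and siRNA 2 replicate 3 is blue at INSIG1, SCD, ELOVL6 and SREBF1.

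Other genes of these routes, listed with earlier results of these data known, were set beside the members. Of 9 tested genes of sterol synthesis outside the members, 0 passed without the block. With it 1 of the 9 fell with siRNA 2 against control (background 3.41%), and 2 were lower with siRNA 2 than with siRNA 1 (background 9.33%). Among the latter was MSMO1, a sterol oxidase, by -0.37 (limma adjusted p = 0.158, 0.0157 with the block).

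Of 10 tested genes of SREBP processing and degradation, 1 passed, both with siRNA 2 against control (background 0.681%) and between the siRNAs (background 3.05%). PAQR3, known to hold SCAP and SREBP at the Golgi, was at 33.0 RPM on average in control, 35.8 RPM with siRNA 1 and 19.9 RPM with siRNA 2. It fell by 0.70 on the log2 scale with siRNA 2 (limma adjusted p = 0.0264) and was lower with siRNA 2 than with siRNA 1 by -0.82 (limma adjusted p = 0.00357). The call against control was lost when control replicate 1 (adjusted p = 0.133), control replicate 3 (0.111), siRNA 2 replicate 1 (0.0967) or siRNA 2 replicate 3 (0.0538) was left out. With any 1 library left out the change stayed between -0.79 and -0.62. Calls over all genes for siRNA 2 against control fell from 76 to between 18 and 70 in those fits.

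Of 20 tested genes of sterol uptake, transport, storage and efflux, 1 fell with siRNA 2 (background 0.681%). Between the siRNAs, 1 was lower and 1 higher with siRNA 2 (background 3.05% in either direction). SOAT1, which esterifies cholesterol for storage, was at 54.9 RPM on average in control, 51.7 RPM with siRNA 1 and 34.2 RPM with siRNA 2. It fell by 0.67 on the log2 scale (limma adjusted p = 0.0275), a call that was lost without any 1 control library or siRNA 2 replicate 1 or replicate 3 (adjusted p from 0.0764 to 0.143). It was also lower with siRNA 2 than with siRNA 1, by -0.59 (limma adjusted p = 0.0225), and that call was lost without any 1 siRNA 1 library or siRNA 2 replicate 1 or replicate 3 (adjusted p from 0.0640 to 0.0802). With any 1 library left out these SOAT1 changes stayed between -0.80 and -0.60 against control, and between -0.72 and -0.52 against siRNA 1. STARD3NL, a late endosome protein, was higher with siRNA 2 than with siRNA 1 by 0.44 (limma adjusted p = 0.0498). Leaving out any 1 library lost that call (adjusted p from 0.0524 to 0.157), while the difference stayed between 0.37 and 0.52. Without a control library it was still 0.44. Calls over all genes between the siRNAs also fell, from 340 to between 153 and 306.

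In the lists of other fatty acid and lipid synthesis (29 tested) and fatty acid oxidation (17 tested), 0 genes passed without the block. With the block, OSBPL9 fell with siRNA 1 (limma adjusted p = 0.0343), 1 of 20 in the transport list against 1.85% of all genes. THRSP, a lipogenic regulator, fell with siRNA 2 (limma adjusted p = 0.0438), 1 of 29 in its list against 3.41% of all genes. Between the siRNAs in that fit, LIPA, a lysosomal lipase, the acyl-CoA synthetases ACSL1 and ACSL5, and the oxidation enzymes HADHB and ACAA1 were lower with siRNA 2, by -0.50, -0.38, -0.33, -0.31 and -0.31. OSBPL9 and DGAT2, which makes triglyceride, were higher, by 0.33 and 0.56 (adjusted p over these 7 from 0.0154 to 0.0453, limma with the block). By list, 2 of 29 were lower and 1 higher in other fatty acid and lipid synthesis, and 2 of 17 were lower in oxidation. In the transport list 2 of 20 were lower and 2 higher. The share over all genes, in either direction, was 9.33%. Without the block, the DGAT2 difference was 0.30 without siRNA 1 replicate 1, and the THRSP change with siRNA 2 was -0.38 without control replicate 2. Of 14 tested unfolded protein response genes, 3 (HSP90B1, CRELD2 and EDEM1) fell with siRNA 2, against 0.681% of all genes in either direction. Their changes were -0.78, -0.59 and -0.60 (limma adjusted p = 0.00245, 0.0219 and 0.0290). edgeR called 2 of the 14 and DESeq2 4. The 9 epithelial and breast markers summed to 10031 to 10811 RPM in control libraries. With siRNA 1 they summed to 9848 to 10310 RPM and with siRNA 2 to 8474 to 9003 RPM. For siRNA 2 against control, none of 7 tested passed without the block and 3 fell with it (background 3.41%). The part of these markers and of the interferon-induced genes in the changes of FASN, INSIG1 and ACLY was not tested.

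Pooling both PVRL4 siRNAs against control gave 0 of 27 members past the threshold with or without the block. The lowest estimate was -0.41 for INSIG1 (limma adjusted p = 1.00, 0.90 with the block), followed by -0.27 for FASN (limma adjusted p = 1.00, 0.90 with the block).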

How the data were processed

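Messenger RNA of 9 SKBR3 libraries was measured with an Ion AmpliSeq kit from 100 ng of total RNA, per the labels' protocols. The kit reads 1 short amplicon per gene, so levels are not compared between genes, and RNA from near-identical copies (HSD17B7, FDPS and CYP51A1 have pseudogenes) or overlapping genes cannot be told apart. The authors deposited RPM values, gene reads scaled to the reads of the library; per the submitters' processing notes they used hg19, and the aligner and counter are not given in the sources used here. Promoters were taken from RefSeq on another build (GRCh38.p14) by symbol.

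Values were whole multiples of 1 read (0.0934 to 0.0998 RPM) for 100% of values within 0.1 read, which gave totals of 10017130 to 10707777 reads. In siRNA 2 replicate 1 the step lies so near 0.1 RPM that whole reads are less surely told from rounded values, and the edgeR and DESeq2 fits include its recovered reads. Intervals of read counts would cover counting error only, since reads carry no molecular identifiers. Same-group libraries differed by more than counting noise (chi-square per degree of freedom 8.90 to 23.9). No label states that replicates were separate cultures; the spread behind the p-values may be technical.

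Groups came from sample titles. log2(RPM + 1) of 11158 genes (mean over 9 libraries no lower than 1 RPM) was fitted with limma 3.58.1 (R 4.3.3, trended variance, 3 groups sharing 1 spread); p-values are two-sided and Benjamini-Hochberg adjusted over all genes, with a threshold of 0.05. Fold changes understate those of low genes. edgeR 4.0.16 and DESeq2 1.42.0 were run on the recovered reads. Replicate numbers in the titles paired the samples. Deviations from group means correlated at 0.252 to 0.417 in the 9 same-number pairs, and all 9 libraries correlated best with their own number. The other 18 pairs lay at -0.340 to -0.0275. Such deviations cancel within a group, so positive same-number values force negative ones elsewhere, and the negative range is not separate evidence of pairing. The tests were checked on simulated data with and without a replicate effect.

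The members and lists were chosen with earlier results of these data known. All 30 members are accounted for; values per library are given for members past the threshold in either fit and for the 4 smallest p-values of a comparison. Chosen after values were seen were the values per library of members called by the replicate test, the counts of the highest replicate, leaving out libraries in the fit with the block, the motif strings (6 were tried, and the looser sterol string was kept after the stricter one matched only SREBF2), and the FDPS and INSIG1 promoters. Other scalings, pseudocounts, filters and left-out libraries were tried. Some genes that the naming rule selects are not reported here by name.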

Additional observations from a re-analysis of the deposited data

Results flagged for a closer look

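With the replicate number in the fit, 5 of 27 members passed the test of siRNA 2 against siRNA 1, beside 9.33% of all genes. Each of these calls was lost in at least 1 fit that left out a single library. Without the replicate number, none of the 5 passed in limma or edgeR. DESeq2 without the replicate number called FASN and ACLY (adjusted p = 0.0244 and 0.0183), among 524 called of all 11158 genes. The log2 differences were -0.45 for CYP51A1, -0.33 for SREBF2, 0.33 for ACLY, -0.44 for FASN and -0.37 for SCD, with adjusted p-values of 0.0251, 0.0248, 0.0120, 0.00724 and 0.0305 in limma with the block. Groups of 3 libraries are too small to test a single library as an outlier.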

How the results depend on the processing

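In the comparisons between siRNA groups the count of members past the threshold stayed at 0 with pseudocounts of 0.1 and 5, no filter or a filter at 5 RPM, TMM, median-of-ratios and quantile scaling, limma without a trend, fits on the 6 libraries compared, and edgeR. With the replicate block it was 1, 2 and 5 (siRNA 1, siRNA 2, and between them). With edgeR and the replicate block it was 1, 2 and 3, and with DESeq2 0, 1 and 2. Over all 11158 genes these fits called 206, 380 and 1041, then 219, 320 and 1015, and 161, 159 and 524. Leaving out 1 library gave 0 to 0 for each siRNA against control and 0 to 1 between them; in the fit with the block it gave 0 to 1, 1 to 3 and 1 to 5. The replicate-number count of 8 was 4 without a filter, 1 without a trend and 3 to 7 with a library left out. Over all genes the calls fell from 1090 to 354, 316 and 609 to 815 in the same settings. PVRL4 with siRNA 1 passed the threshold with a pseudocount of 5 (-0.56), quantile scaling (-0.91), the block (-0.84), edgeR with the block (-0.98) and DESeq2 (-0.99).

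Changes near 0 turned sign when 1 library was left out. With siRNA 1 against control the left-out values ran from -0.23 to 0.045 for SQLE, -0.041 to 0.20 for STARD4 and -0.037 to 0.19 for ACACA. With siRNA 2 they ran from -0.22 to 0.16 for HMGCS1, -0.024 to 0.24 for ME1 and -0.068 to 0.18 for EBP. Between the siRNAs they ran from -0.026 to 0.16 for MVK, -0.028 to 0.22 for EBP and -0.23 to 0.16 for SREBF1. None of these was a call, and the cause was not tested. Depth limits LSS, ACSS2 and FADS2, which had at most 7 reads in a library.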

Other observations

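In the list of other fatty acid and lipid synthesis, 9 of 29 tested genes passed the limma F test of the replicate number (background 9.77%). edgeR called 6 of them or of the rest of the list, and DESeq2 6, with 1090 and 842 of all 11158 genes called. PGD, an enzyme of the pentose phosphate route that makes NADPH, was at 204, 157 and 154 RPM in control replicates 1, 2 and 3. It was at 202, 160 and 170 RPM with siRNA 1 and at 199, 162 and 190 RPM with siRNA 2. THRSP was lowest in replicate 1, at 6.58 RPM against 12.6 and 9.07 RPM in control and 4.93 RPM against 9.88 and 8.78 RPM with siRNA 1. With siRNA 2 it was at 4.59 RPM against 6.88 and 5.915 RPM. The remaining sterol and fatty acid lists were near or below the background. Past the threshold were 0 of 10 tested genes of SREBP processing and degradation and 1 of 9 of other sterol synthesis. In sterol uptake, transport, storage and efflux it was 2 of 20, and in fatty acid oxidation 1 of 17 (CRAT). The unfolded protein response list lay above the background, with 4 of 14 tested genes: DNAJB9, HERPUD1, TRIB3 and CHAC1 (edgeR 5, DESeq2 5).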
